A study of Homo sapiens with 9 samples.

Results

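DNA replication genes were examined as a set of 46 named genes, looked up by symbol in a table of read counts for 21229 genes, and all 46 were present. By role they fell into 10 licensing genes, 27 replication fork genes and 4 nucleotide supply genes. The remaining 5 (E2F1, CCNE1, CCNE2, SLBP and ATAD2) belong to none of these roles and are given as S-phase entry genes. RNA had been sequenced from haematopoietic cells made in culture from the H1 line of human embryonic stem cells, a widely used cell line, as 9 libraries in 3 groups of 3. The groups were CD90+ cells with GATA2 overexpression (GATA2 OE CD90+), CD90+ cells of control genotype (CD90+ control) and CD38+ cells of control genotype (CD38+ control). CD90 and CD38 are cell surface antigens, and GATA2 is a transcription factor of blood stem and progenitor cells. The labels give no vector, promoter or duration for the overexpression and no day of differentiation. Nor do they tell whether replicate libraries are separate cultures, so p-values here measure only the spread between these samples, which may be technical.

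Origins of replication are licensed before S phase, when the origin recognition complex, CDC6 and CDT1 load the ring of MCM2 to MCM7 onto DNA. On entry into S phase CDC45 and the GINS proteins join the ring to make the active helicase, and primase, the polymerases, the clamp PCNA with its loader RFC and the single-strand binding protein RPA form the fork. Most of these genes are targets of E2F transcription factors and their mRNAs are more abundant in cycling than in resting cells, the state of most blood stem cells.

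Library totals were 37500192 to 39582736 reads within genes in GATA2 OE CD90+, 42577569 to 47261093 in CD90+ control and 42695005 to 45561088 in CD38+ control cells. Levels are given as CPM, counts scaled to a common library size by TMM factors, in the order of replicates 1, 2 and 3, or as mean ± SD with n = 3 libraries. All 46 replication genes were among the 16232 genes that passed the filter on low counts, and the lowest raw count was 128 reads, for CCNE2. Of the 46 genes 23 share exon bases with another gene, 18 of them on the opposite strand, and 7 (PCNA, RFC3, RFC5, FEN1, RPA2, TYMS and RRM2) have named pseudogene copies, so their counts are less certain. The coefficient of variation of the 46 between libraries of a group had a median of 2.98% over 138 values of gene and group, and 3 values were above 10%. GATA2 stood at 376 ± 12.8 CPM in GATA2 OE CD90+, 87.3 ± 1.93 CPM in CD90+ control and 569 ± 16.3 CPM in CD38+ control libraries. THY1, which encodes CD90, stood at 3.06 ± 0.439 CPM in GATA2 OE CD90+ and 4.43 ± 0.632 CPM in CD90+ control libraries and had 0 counts in CD38+ control libraries. The CD38 gene stood at 2.23 ± 0.514 CPM in GATA2 OE CD90+, 4.37 ± 0.382 CPM in CD90+ control and 122 ± 2.395 CPM in CD38+ control libraries.

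The promoters of these genes were searched for the letters of E2F sites, since E2F factors act on many of them. RefSeq promoters (250 bases before to 50 after the start, GRCh38.p14) were matched for 38 of the 46 genes. TTTCCCGC, TTTGGCGC or TTTCGCGC, read on both strands, occurred in 19 of these 38 (50%), against 4.10% of 12258 tested genes with a promoter and 2.79% of all 27305 promoters. CCAAT, the letters of NF-Y sites, occurred in 21 of 38 (55.3%), against 36.0% of tested genes and 35.7% of all promoters. Stretches of 4 promoters are printed, with no annotated exon in them. They are all of the set that had E2F letters in exon-free bases before the start. Of these, PCNA (chr20:5126627-5126746, minus strand) rose more than 2-fold on overexpression and POLA1 (chrX:24693722-24693841, plus strand) did not pass the test. MCM3 (chr6:52284882-52284992, minus strand) and MCM6 (chr2:135876469-135876588, minus strand) are ring subunits. The sequences run 5′ to 3′ on the strand of the gene, and capitals mark the E2F letters. Their first base lies 59, 137 and 174 bases before the start in PCNA, POLA1 and MCM3. In MCM6 they are a pair of overlapping matches, with first bases at -90 and -86 from the start.
PCNA: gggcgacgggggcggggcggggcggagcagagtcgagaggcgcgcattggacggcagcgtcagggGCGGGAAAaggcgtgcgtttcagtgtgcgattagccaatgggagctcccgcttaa
POLA1: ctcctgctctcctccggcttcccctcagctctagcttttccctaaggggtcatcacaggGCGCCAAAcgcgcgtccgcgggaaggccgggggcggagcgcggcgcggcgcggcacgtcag
MCM3: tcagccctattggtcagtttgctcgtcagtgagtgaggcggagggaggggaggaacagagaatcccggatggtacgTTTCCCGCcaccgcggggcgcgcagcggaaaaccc
MCM6: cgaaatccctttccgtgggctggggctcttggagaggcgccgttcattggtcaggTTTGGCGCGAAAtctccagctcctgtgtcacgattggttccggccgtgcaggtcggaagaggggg

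GATA2 OE CD90+ cells had higher levels of nearly all replication genes than CD90+ control cells. Of the 46 genes 43 rose, 2 fell (POLE and ATAD2) and POLA1 did not pass the test, by edgeR's quasi-likelihood test at an adjusted p under 0.05 over all 16232 genes. The background was high, since 77.6% of all tested genes were called, 38.0% higher and 39.6% lower. The median log2 fold change was 0.52 over the replication genes and -0.039 over all genes tested. With library size as the only scaling, which moved the median of all genes by -0.25, 37 rose and 3 fell, and with upper-quartile factors (a shift of -0.11) 43 rose and 3 fell. Of the calls over all genes 35.5% were higher with library size only, against 49.0% with TMM factors. The libraries of the compared groups did not overlap for 45 of the 46 genes, and for 80.4% of all tested genes. TYMS, CDC45, PRIM1, PCNA, POLE2 and GINS2 rose at least 2-fold (TYMS alone with library size only). The number of all tested genes with such a rise is not given here, so no excess can be read from this count. In such bulk samples fewer cells of a type and less RNA per cell cannot be told apart.

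Markers of other cells moved in the same comparison. The summed level of 14 macrophage markers was 525 to 583 CPM in GATA2 OE CD90+ and 2346 to 2382 CPM in CD90+ control libraries, and 13 of the 13 tested were lower. LYZ and CSF1R made up most of the GATA2 OE CD90+ sum, with means of 310 and 228 CPM, against 359 and 1068 CPM in CD90+ control. The sum therefore understates the fall of the other markers, and the median log2 fold change of those tested was -5.41. That of 15 mesenchymal markers was 309 to 326 CPM against 1216 to 1234 CPM, with 15 of 15 lower. No mesenchymal marker was at 0 in these libraries, and of the macrophage markers MARCO and CD68 were at 0 in some GATA2 OE CD90+ libraries. That of 14 mast cell, basophil and eosinophil markers was 1200.0 to 1289 CPM against 424 to 436 CPM, with 13 of 14 higher. The sums of the erythroid and epithelial lists were lower in GATA2 OE CD90+ (467 to 549 and 744 to 753 CPM) than in CD90+ control libraries (858 to 883 and 1178 to 1185 CPM), and those of the megakaryocyte, endothelial and blood progenitor lists higher (4506 to 4613, 1480.2 to 1501 and 1573 to 1608 CPM, against 2636 to 2674, 1050.1 to 1078 and 911 to 945 CPM). Single markers of these lists went both ways. Of the erythroid markers 9 were lower and 3 higher, and of the epithelial 12 and 1. Of the megakaryocyte markers 6 were higher and 2 lower, of the endothelial 6 and 4, and of the blood progenitor 8 and 3. The part of these cells in the rise of the replication genes was not tested.

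Set against CD38+ control cells, GATA2 OE CD90+ cells had higher levels of 34 replication genes and lower levels of 9, and 3 (MCM10, RFC4 and CHAF1A) did not pass the test. Over all tested genes 83.2% were called, 43.3% higher and 39.9% lower. The median log2 fold change was 0.56 for the replication genes and 0.071 for all genes. With library size only, which shifted the median of all genes by 0.16, 37 rose and 6 fell. The libraries did not overlap for 44 of the 46 genes and for 83.0% of all tested genes. Of the 46, 5 were at least 2-fold higher (8 with library size only) and TK1 alone was at least 2-fold lower. The number of all tested genes at 2-fold is not given for this comparison either. Macrophage markers summed to 525 to 583 CPM in GATA2 OE CD90+ against 2937 to 2952 CPM in CD38+ control libraries. Of these, 13 of 13 tested were lower, with a median log2 fold change of -3.86. Mesenchymal markers summed to 309 to 326 against 35.8 to 39.1 CPM (13 of 15 higher, 2 lower). The mast cell, basophil and eosinophil list summed to 1200.0 to 1289 against 7325 to 7463 CPM (5 of 14 higher, 8 lower). Megakaryocyte markers summed to 4506 to 4613 against 796 to 809 CPM (9 of 11 tested higher, 0 lower). The sums of the erythroid, endothelial, epithelial and blood progenitor lists were also higher in GATA2 OE CD90+ libraries, though each list held markers that were lower. The part of these cells in this comparison was not tested.

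Between the control groups the replication genes were split. In CD90+ control cells 17 were higher than in CD38+ control cells, 24 were lower and 5 (MCM6, GINS4, RFC3, PRIM1 and ATAD2) did not pass the test. All tested genes were called in 80.4% of cases, 41.1% higher and 39.3% lower, so the split lay near the background. The split turned with the scaling: with library size only, 28 were higher and 13 lower, and with upper-quartile factors 24 and 16, while the median of all genes moved by 0.41 and 0.26. Of the calls over all genes 71.2% were higher with library size only, against 51.2% with TMM factors. The median was -0.098 for the replication genes beside 0.034 for all genes, and 0.31 beside 0.44 with library size only. TK1, PCNA and CCNE2 were at least 2-fold lower and no replication gene was at least 2-fold higher, whereas with library size only TK1 alone was at least 2-fold lower and 2 replication genes were called at least 2-fold higher. For these counts, too, the number of all tested genes at 2-fold is not given here. The summed level of 14 mast cell, basophil and eosinophil markers was 424 to 436 CPM in CD90+ control against 7325 to 7463 CPM in CD38+ control libraries. Of the 14, 10 were lower and 3 higher. That of the mesenchymal markers was 1216 to 1234 against 35.8 to 39.1 CPM (15 of 15 higher), with POSTN at 0 in CD38+ control. The sums of the erythroid, megakaryocyte, epithelial and endothelial lists were also higher in CD90+ control libraries. Those of the macrophage and blood progenitor lists were lower, though 8 macrophage markers were higher and 5 lower, and 7 blood progenitor markers were higher and 4 lower. The part of these cells in the split was not tested.

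**Figure D1:**
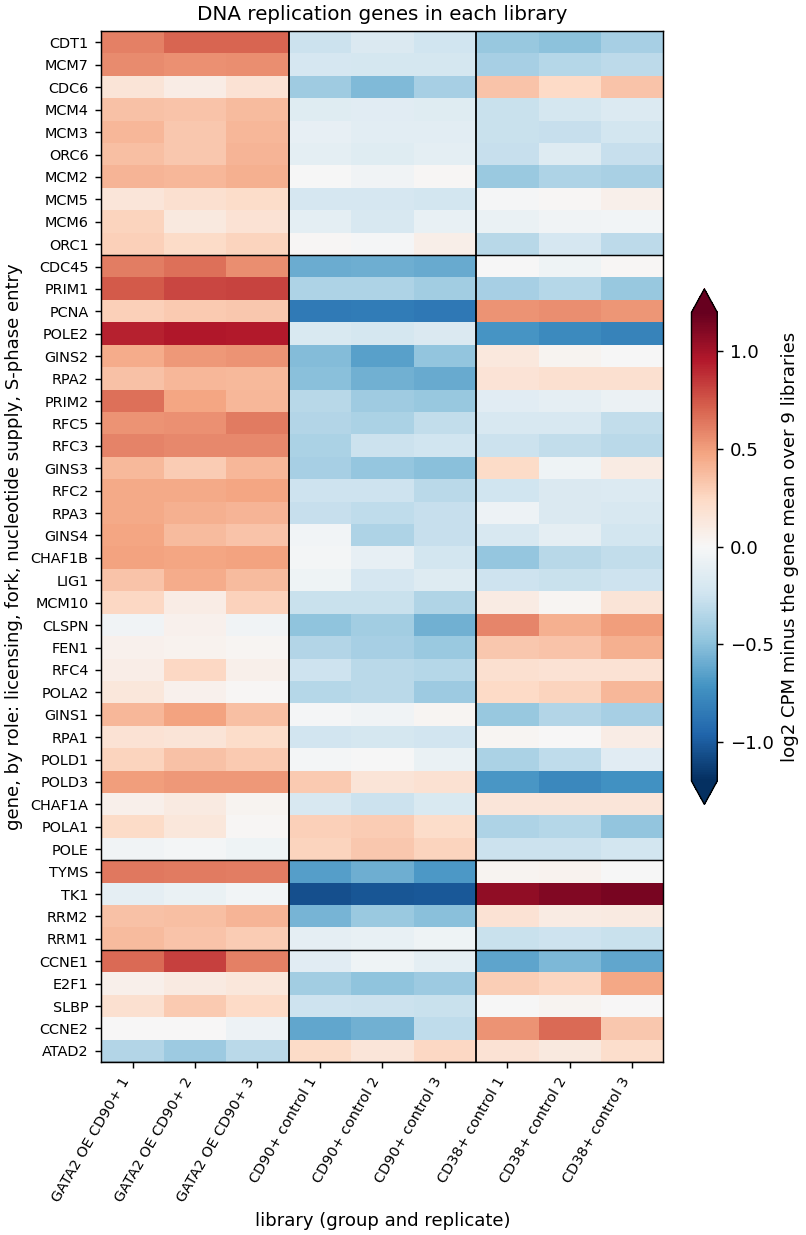
Level of each of the 46 replication genes in each of the 9 libraries, as log2 CPM minus the gene's mean over all libraries, with genes grouped by role and ordered within a role by their change on GATA2 overexpression. Columns run from GATA2 OE CD90+ to CD90+ control and CD38+ control. The GATA2 OE CD90+ mean was the highest for 33 genes, the CD38+ control mean for 10 and the CD90+ control mean for 3, under TMM scaling.

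**Figure D2:**
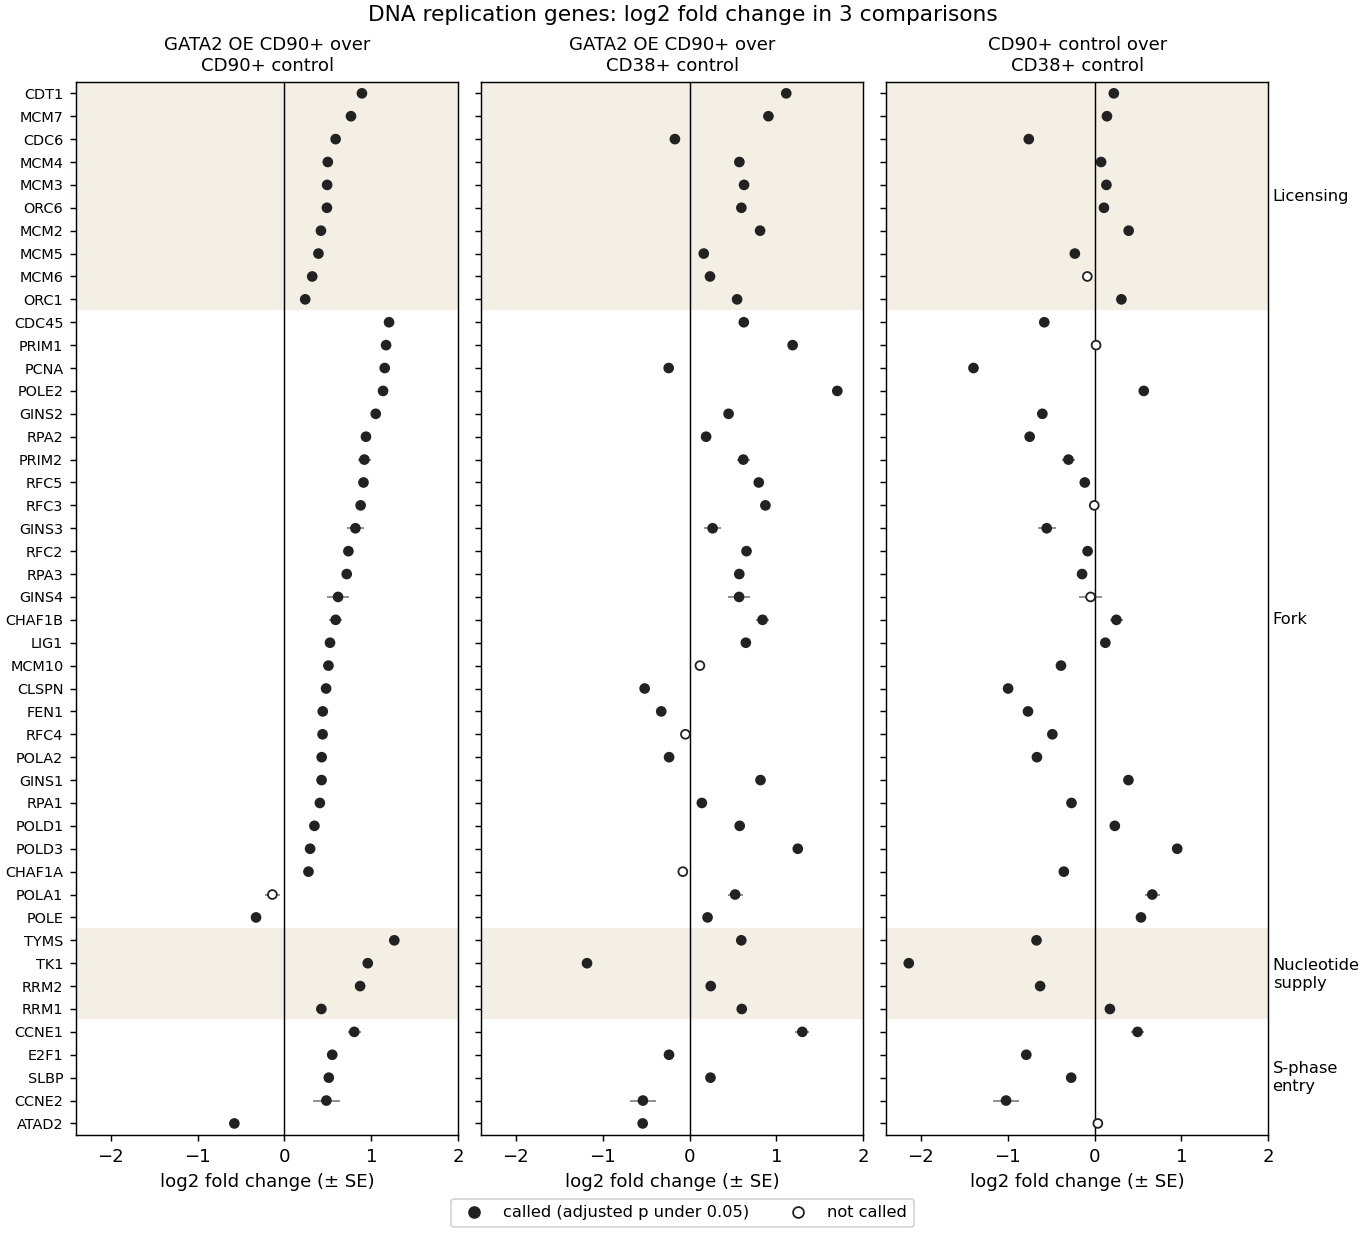
Log2 fold change ± SE of each replication gene in the 3 comparisons, by role. Filled points passed the test (43 higher and 2 lower for GATA2 OE CD90+ over CD90+ control, 34 and 9 over CD38+ control, and 17 and 24 for CD90+ control over CD38+ control, a split that library-size scaling turns to 28 and 13), and open points did not.

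The licensing genes rose together in GATA2 OE CD90+ cells. All 10 were higher than in CD90+ control cells, with log2 fold changes of 0.24 to 0.89 and a median of 0.49, and with library size only 8 of the 10 were called, all higher. Their summed level was 1902 ± 24.5 CPM in GATA2 OE CD90+, 1294 ± 7.48 CPM in CD90+ control and 1240.5 ± 26.5 CPM in CD38+ control libraries.

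CDT1, which brings the MCM ring to the origin, changed most of the licensing genes on overexpression. It had 124, 132 and 133 CPM in GATA2 OE CD90+, 68.3, 72.4 and 68.9 CPM in CD90+ control and 59.7, 58.1 and 61.9 CPM in CD38+ control libraries. The overexpression libraries lay far above both sets of controls, by a log2 difference of 0.89 ± 0.037 from CD90+ control (adjusted p = 6.41e-13) and 1.11 ± 0.038 from CD38+ control (adjusted p = 2.40e-14), and the controls also did not overlap (0.22 ± 0.038). CDC6, the ATPase that works with the origin recognition complex in loading, followed another order, with 52.0, 49.8 and 52.7 CPM in GATA2 OE CD90+, 34.9, 32.5 and 35.5 CPM in CD90+ control and 59.1, 55.3 and 59.3 CPM in CD38+ control libraries. It was higher in the overexpression libraries than in CD90+ control (0.59 ± 0.048) but lower than in CD38+ control (-0.17 ± 0.047), a difference that was not called with library size only (-0.0066). Between the controls CDC6 was -0.76 ± 0.047 in CD90+ over CD38+ (adjusted p = 1.45e-10), the lowest of the licensing genes.

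ORC1, an ATPase subunit of the origin recognition complex, changed least of the licensing genes on overexpression. It stood at 43.7, 42.0 and 42.9 CPM in GATA2 OE CD90+, 36.1, 35.3 and 37.6 CPM in CD90+ control and 28.3, 31.0 and 28.7 CPM in CD38+ control libraries. Its libraries formed 3 separate ranges, with log2 differences of 0.24 ± 0.049 (adjusted p = 3.06e-04), 0.55 ± 0.050 against CD38+ control and 0.31 ± 0.050 between the controls, and the first was -0.0096 with library size only. ORC6, the small subunit of the same complex, had 127, 123 and 131 CPM in GATA2 OE CD90+, 90.9, 89.5 and 91.1 CPM in CD90+ control and 81.8, 88.6 and 81.4 CPM in CD38+ control libraries. It was higher by 0.49 ± 0.036 than in CD90+ control and by 0.60 ± 0.036 than in CD38+ control. Between the controls its difference was 0.11 ± 0.036, which was not called without CD38+ control library 1 (adjusted p = 0.0546) or 3 (adjusted p = 0.0579).

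The 6 subunits of the MCM ring were all higher in GATA2 OE CD90+ than in CD90+ control cells, by log2 0.32 to 0.77. MCM7 had 567, 560.4 and 565 CPM in GATA2 OE CD90+, 332, 331 and 332 CPM in CD90+ control and 291, 302 and 308 CPM in CD38+ control libraries, and its change was 0.77 ± 0.024 (adjusted p = 1.57e-14). MCM4 had 192, 189.5 and 195 CPM in GATA2 OE CD90+, 136, 137 and 136 CPM in CD90+ control and 124, 129 and 133 CPM in CD38+ control libraries. MCM3, whose promoter stretch is shown above, had 245, 233 and 244 CPM in GATA2 OE CD90+, 173, 170.0 and 170.2 CPM in CD90+ control and 154, 154 and 159 CPM in CD38+ control libraries. For each of these 3 subunits the overexpression libraries lay above all controls, and the controls lay close together: the CD90+ over CD38+ difference was 0.14 ± 0.024 for MCM7, 0.14 ± 0.027 for MCM3 and 0.075 ± 0.028 for MCM4. The last was not called without CD38+ control library 1 (adjusted p = 0.14) or 2 (0.0536) or CD90+ control library 2 (0.0575). MCM2 had 199.7, 198 and 202 CPM in GATA2 OE CD90+, 149.9, 146 and 152 CPM in CD90+ control and 111, 116 and 115 CPM in CD38+ control libraries. It rose by 0.42 ± 0.027 on overexpression and by 0.39 ± 0.027 in CD90+ over CD38+ control cells, the largest rise between the controls among licensing genes.

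MCM5 and MCM6 rose less with TMM factors alone and differed in the controls. With a trend on gene length and GC content removed, MCM5 rose by 0.69 over CD90+ control, more than any ring subunit but MCM7 (0.85). MCM6 rose by 0.12 there. MCM5 had 223, 229.9 and 236 CPM in GATA2 OE CD90+, 176, 176 and 173 CPM in CD90+ control and 199.7, 203 and 211 CPM in CD38+ control libraries. It rose by 0.39 ± 0.028 over CD90+ control and 0.16 ± 0.028 over CD38+ control, and it was lower in CD90+ than in CD38+ control libraries (-0.23 ± 0.028), a direction that turned to 0.18 with library size only. MCM6 had 132, 119 and 124 CPM in GATA2 OE CD90+, 101, 96.0 and 103 CPM in CD90+ control and 104, 106 and 107 CPM in CD38+ control libraries. Its rise was 0.32 ± 0.038 over CD90+ control (adjusted p = 7.15e-07, and 0.0912 with library size only) and 0.24 ± 0.038 over CD38+ control, and this difference was -0.0037 once a trend on gene length and GC content was removed. Between the controls MCM6 did not pass the test (-0.083 ± 0.038, adjusted p = 0.0532), and it passed without CD38+ control library 1 (0.0436), CD90+ control library 3 (0.0386) or either of GATA2 OE CD90+ libraries 1 (0.0252) and 2 (0.0368).

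The protein ring holds each MCM subunit once, and the mRNA levels per exon length were unequal. Per kb of exon MCM7 was the highest, with 129 ± 0.799 CPM per kb in GATA2 OE CD90+, 75.7 ± 0.135 in CD90+ control and 68.5 ± 2.04 in CD38+ control libraries, and MCM4 the lowest, with 27.6 ± 0.397, 19.5 ± 0.0965 and 18.5 ± 0.639 CPM per kb in the same groups. MCM3 came next below MCM7, with 65.9 ± 1.90 CPM per kb in GATA2 OE CD90+ libraries. The highest subunit stood 4.67-fold above the lowest in GATA2 OE CD90+, 3.88-fold in CD90+ control and 3.70-fold in CD38+ control libraries. By the length of the principal transcript in place of all exons MCM6 was the lowest, and these factors were 5.72, 4.20 and 3.59 in the same order of groups. MCM7 shares 392 exon bases with AP4M1 on the opposite strand, and the use of strand in counting is not given in the sources used here.

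**Figure D3:**
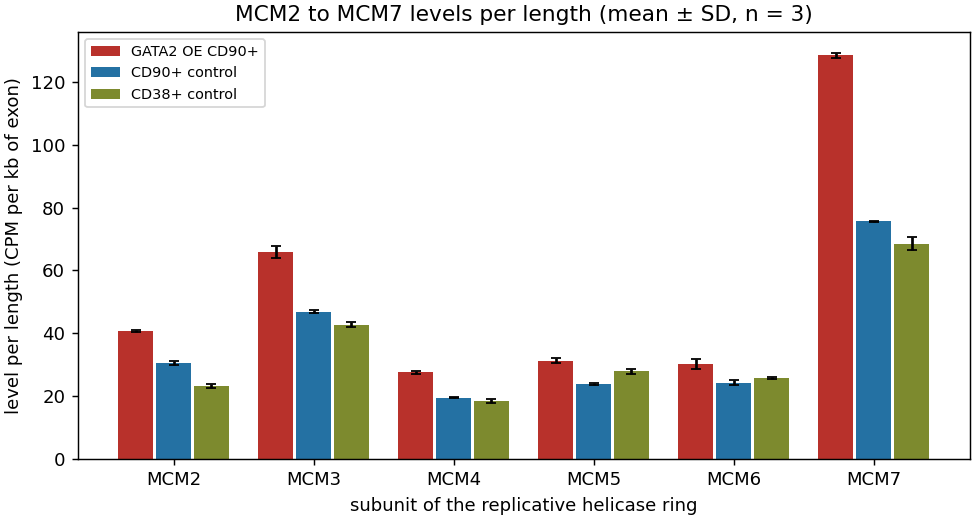
Level of MCM2 to MCM7 in CPM per kb of exon for GATA2 OE CD90+, CD90+ control and CD38+ control cells, as bars from 0 with the mean and SD of 3 libraries. Every subunit was highest in GATA2 OE CD90+ cells under TMM scaling, from 27.6 ± 0.397 for MCM4 to 129 ± 0.799 for MCM7.

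Of the 27 fork genes 25 rose, POLE fell and POLA1 did not pass the test in GATA2 OE CD90+ against CD90+ control cells, with a median log2 fold change of 0.59. With library size only 22 rose and 2 fell. Against CD38+ control cells 20 rose and 4 (CLSPN, FEN1, POLA2 and PCNA) fell. Between the controls 16 were lower and 8 higher in CD90+ cells, and 7 lower and 15 higher with library size only. The summed level was 2468 ± 21.4 CPM in GATA2 OE CD90+, 1498 ± 21.1 CPM in CD90+ control and 1991 ± 10.8 CPM in CD38+ control libraries.

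CDC45, the helicase subunit that joins the loaded ring, had the largest rise of the fork genes. It had 72.1, 74.7 and 69.6 CPM in GATA2 OE CD90+, 31.3, 31.5 and 31.1 CPM in CD90+ control and 47.1, 45.6 and 47.6 CPM in CD38+ control libraries. The 3 groups did not overlap, with log2 differences of 1.204 ± 0.041 over CD90+ control (adjusted p = 5.09e-14), 0.63 ± 0.041 over CD38+ control and -0.58 ± 0.042 between the controls. Of its GINS partners, GINS2 followed the same order, with 101 ± 3.57 CPM in GATA2 OE CD90+, 48.7 ± 3.03 CPM in CD90+ control and 73.9 ± 3.40 CPM in CD38+ control libraries. GINS1 differed from it in the controls, with 47.6, 50.4 and 46.5 CPM in GATA2 OE CD90+, 35.8, 34.96 and 36.7 CPM in CD90+ control and 26.3, 28.3 and 27.4 CPM in CD38+ control libraries. GINS1 rose by 0.43 ± 0.048 and GINS2 by 1.05 ± 0.047 on overexpression, but in CD90+ over CD38+ control cells GINS1 was higher (0.39 ± 0.050) and GINS2 lower (-0.60 ± 0.048).

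GINS3 and GINS4, the other GINS subunits, had few reads. GINS3 stood at 12.04 ± 0.422 CPM in GATA2 OE CD90+, 6.83 ± 0.237 CPM in CD90+ control and 10.01 ± 0.986 CPM in CD38+ control libraries, and GINS4 had 8.24, 7.74 and 7.53 CPM in GATA2 OE CD90+, 5.81, 4.61 and 4.91 CPM in CD90+ control and 5.21, 5.51 and 5.11 CPM in CD38+ control libraries. They rose by 0.82 ± 0.10 and 0.62 ± 0.13 over CD90+ control. The rise of GINS3 over CD38+ control (0.27 ± 0.10) was not called without CD38+ control library 2 (adjusted p = 0.0968) or GATA2 OE CD90+ library 3 (0.0582). The GINS4 controls overlapped (-0.046 ± 0.13, adjusted p = 0.751). MCM10, which helps to activate the helicase, had 40.6, 36.3 and 41.4 CPM in GATA2 OE CD90+, 28.4, 28.4 and 26.5 CPM in CD90+ control and 36.5, 34.5 and 37.8 CPM in CD38+ control libraries. It rose by 0.51 ± 0.058 over CD90+ control, while its overexpression and CD38+ control libraries overlapped (0.12 ± 0.058, adjusted p = 0.0653). That comparison passed the test without CD38+ control library 3 (adjusted p = 0.0334) or GATA2 OE CD90+ library 2 (0.00806), and with library size only (0.28). In CD90+ over CD38+ control MCM10 was lower (-0.39 ± 0.058), and 0.023 with library size only.

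PCNA, the sliding clamp of the polymerases (chr20:5114953-5126626, GRCh38), differed most between the control groups among fork genes. It had 322, 328 and 331 CPM in GATA2 OE CD90+, 147, 148 and 146 CPM in CD90+ control and 385, 389.9 and 383 CPM in CD38+ control libraries. CD90+ control libraries were by far the lowest and CD38+ control libraries the highest. PCNA was higher by 1.15 ± 0.023 in GATA2 OE CD90+ than in CD90+ control (adjusted p = 3.77e-17) and lower than in CD38+ control (-0.24 ± 0.022), and it was -1.39 ± 0.023 in CD90+ over CD38+ control (adjusted p = 1.76e-18), a direction that held under every scaling tried. PCNA has 3 processed pseudogenes, so reads could be lost or shared between copies.

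The clamp loader subunits rose as well. RFC3 had 92.4, 90.8 and 91.2 CPM in GATA2 OE CD90+, 46.9, 50.9 and 51.7 CPM in CD90+ control and 51.2, 49.8 and 48.9 CPM in CD38+ control libraries. Its control groups overlapped (-0.0031 ± 0.042, adjusted p = 0.948), and the overexpression libraries lay above both, by 0.88 ± 0.041 over CD90+ control. RFC4 had 77.4, 86.8 and 76.3 CPM in GATA2 OE CD90+, 61.5, 58.3 and 57.6 CPM in CD90+ control and 83.5, 82.4 and 82.6 CPM in CD38+ control libraries. It rose by 0.44 ± 0.045 over CD90+ control and overlapped CD38+ control (-0.047 ± 0.045, adjusted p = 0.339); without GATA2 OE CD90+ library 2 this was called lower (adjusted p = 0.0249), and with library size only it turned to 0.11. RFC2 and RFC5 stood at 172 ± 1.196 CPM in GATA2 OE CD90+, 103 ± 2.92 CPM in CD90+ control and 109 ± 3.24 CPM in CD38+ control libraries, and at 119.8 ± 3.88, 63.8 ± 2.045 and 69.0 ± 2.69 CPM in the same groups. They rose by 0.74 ± 0.030 and 0.91 ± 0.038, while their differences between the controls were small (-0.080 ± 0.030 and -0.11 ± 0.039) and turned to 0.33 and 0.30 with library size only. Between the controls RFC2 was not called without CD90+ control library 3 (adjusted p = 0.144) or CD38+ control library 2 (0.0651) or 3 (0.0863). RFC5 was not called there without CD90+ control library 1 (0.051) or 2 (0.0805) or CD38+ control library 2 (0.0565).

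The subunits of the polymerases did not move together. POLE, the catalytic subunit of the leading-strand polymerase (chr12:132623753-132687365), had 47.2, 47.5 and 46.6 CPM in GATA2 OE CD90+, 58.5, 60.8 and 58.1 CPM in CD90+ control and 40.4, 40.4 and 41.6 CPM in CD38+ control libraries. It was the only fork gene to fall on overexpression (-0.33 ± 0.039, adjusted p = 8.28e-07), and once the trend on length and GC was taken out its difference turned to 0.22. POLE2, the accessory subunit of the same enzyme (chr14:49643555-49688422), had 51.3, 52.7 and 52.3 CPM in GATA2 OE CD90+, 23.9, 23.3 and 23.96 CPM in CD90+ control and 16.6, 15.9 and 15.5 CPM in CD38+ control libraries. Its groups lay far apart, with rises of 1.13 ± 0.047 over CD90+ control and 1.70 ± 0.050 over CD38+ control, the second of them the largest of all replication genes. The ratio of POLE2 to POLE, in CPM per kb of exon, was 6.22 ± 0.0943 in GATA2 OE CD90+ libraries. It was 2.26 ± 0.0864 in CD90+ control and 2.21 ± 0.104 in CD38+ control libraries. With the trend on length and GC removed, POLE2 rose by 0.85 and POLE by 0.22 over CD90+ control, a smaller gap than these ratios show.

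POLA1, the catalytic subunit of DNA polymerase alpha (chrX:24693919-24996986), had 14.8, 13.9 and 12.7 CPM in GATA2 OE CD90+, 15.3, 15.5 and 14.7 CPM in CD90+ control and 9.76, 9.95 and 9.06 CPM in CD38+ control libraries. Its GATA2 OE CD90+ and CD90+ control libraries overlapped (-0.14 ± 0.083, adjusted p = 0.135), and POLA1 was called lower with library size only (-0.39, adjusted p = 4.16e-04), RLE size factors (-0.19), upper-quartile factors (-0.25), a filter of at least 1 CPM in 3 libraries (-0.24) and DESeq2 (-0.19). POLA1 stood above CD38+ control by 0.53 ± 0.086 in GATA2 OE CD90+ and by 0.66 ± 0.085 in CD90+ control libraries. The other subunits of that complex did not share this order. PRIM1, the catalytic subunit of primase (chr12:56731596-56752373), had 165, 172 and 173 CPM in GATA2 OE CD90+, 76.6, 76.5 and 73.9 CPM in CD90+ control and 74.7, 77.7 and 71.8 CPM in CD38+ control libraries. Its controls overlapped (0.018 ± 0.035, adjusted p = 0.651, but 0.43 and called with library size only), and it rose by 1.17 ± 0.034 over CD90+ control (adjusted p = 4.85e-15) and 1.19 ± 0.034 over CD38+ control. PRIM2, the large primase subunit, stood at 23.7 ± 2.25 CPM in GATA2 OE CD90+, 12.5 ± 0.542 CPM in CD90+ control and 15.4 ± 0.339 CPM in CD38+ control libraries and rose by 0.92 ± 0.077 over CD90+ control. POLA2, the accessory subunit, had 52.1, 49.1 and 47.8 CPM in GATA2 OE CD90+, 37.5, 38.0 and 35.2 CPM in CD90+ control and 55.8, 56.9 and 62.5 CPM in CD38+ control libraries. It rose by 0.43 ± 0.052 over CD90+ control but was lower than in CD38+ control (-0.24 ± 0.052), which library-size scaling reduced to -0.074 (not called). The ratio of PRIM1 to POLA1, in CPM per kb of exon, was 32.2 ± 3.14 in GATA2 OE CD90+ libraries. It was 13.0 ± 0.141 in CD90+ control and 20.3 ± 0.348 in CD38+ control libraries. With the trend on length and GC removed, PRIM1 rose by 0.80 over CD90+ control and POLA1 was at -0.14, again a smaller gap. PCNA and POLA1 both hold E2F letters in the stretches printed above, and the median change on overexpression was 0.55 for the 19 genes with such letters and 0.51 for the 19 without.

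DNA polymerase delta had POLD1 and POLD3 among the 46 genes. POLD3, an accessory subunit (chr11:74493851-74669117), had 59.5, 60.1 and 60.1 CPM in GATA2 OE CD90+, 52.2, 46.8 and 47.4 CPM in CD90+ control and 25.8, 24.5 and 25.4 CPM in CD38+ control libraries. It was 0.95 ± 0.049 in CD90+ over CD38+ control (adjusted p = 1.09e-11), the largest such rise of the replication genes, 1.247 ± 0.050 in GATA2 OE CD90+ over CD38+ control, and 0.30 ± 0.047 over CD90+ control, the last not called with library size only. POLD1, the catalytic subunit, had 100.1, 106 and 104 CPM in GATA2 OE CD90+, 81.9, 82.9 and 79.1 CPM in CD90+ control and 63.9, 67.6 and 76.0 CPM in CD38+ control libraries. It rose by 0.34 ± 0.049 over CD90+ control (not called with library size only, adjusted p = 0.081), by 0.58 ± 0.050 over CD38+ control, and by 0.23 ± 0.049 in CD90+ over CD38+ control. Of its subunits outside the 46 genes, POLD2 stood at 203 ± 5.80 CPM in GATA2 OE CD90+, 102 ± 3.14 CPM in CD90+ control and 81.7 ± 3.001 CPM in CD38+ control libraries, higher in both CD90+ groups than in CD38+ control, and POLD4 went the other way, at 6.08 ± 0.229 CPM in GATA2 OE CD90+, 6.50 ± 0.795 CPM in CD90+ control and 26.1 ± 1.32 CPM in CD38+ control libraries.

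The enzymes that finish the lagging strand differed in their order. FEN1, the flap endonuclease, had 85.6, 84.7 and 83.5 CPM in GATA2 OE CD90+, 64.4, 62.3 and 60.3 CPM in CD90+ control and 103, 104 and 111 CPM in CD38+ control libraries. It rose over CD90+ control (0.44 ± 0.037) yet stayed below CD38+ control (-0.33 ± 0.036), and it was -0.77 ± 0.036 in CD90+ over CD38+ control. LIG1, the ligase that seals the nicks, had 77.0, 82.3 and 79.0 CPM in GATA2 OE CD90+, 58.5, 52.8 and 54.4 CPM in CD90+ control and 50.8, 50.2 and 51.0 CPM in CD38+ control libraries. It rose by 0.52 ± 0.042 and 0.65 ± 0.043 over the control groups, and its difference between the controls, 0.12 ± 0.043, was not called without CD90+ control library 1 (adjusted p = 0.0826). The 3 subunits of RPA, which coats single-stranded DNA, all rose over CD90+ control, RPA2 by 0.94 ± 0.027, RPA3 by 0.72 ± 0.035 and RPA1 by 0.41 ± 0.029. RPA2 stood at 309.9 ± 5.06 CPM in GATA2 OE CD90+, 162 ± 5.85 CPM in CD90+ control and 272 ± 2.99 CPM in CD38+ control libraries. RPA1 stood at 148 ± 3.48 CPM in GATA2 OE CD90+, 112 ± 1.08 CPM in CD90+ control and 134 ± 4.24 CPM in CD38+ control libraries. RPA3 stood at 129 ± 2.06 CPM in GATA2 OE CD90+, 78.5 ± 0.699 CPM in CD90+ control and 86.7 ± 4.44 CPM in CD38+ control libraries. All 3 were also higher than in CD38+ control, and RPA2 turned to -0.12 there with the length and GC trend removed. Between the controls all 3 were lower in CD90+ cells (-0.27, -0.75 and -0.14), but with library size only RPA1 and RPA3 turned to 0.14 and 0.27.

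CLSPN, which encodes the checkpoint adaptor claspin, had 36.1, 38.3 and 35.9 CPM in GATA2 OE CD90+, 26.4, 27.8 and 24.9 CPM in CD90+ control and 55.6, 49.7 and 52.5 CPM in CD38+ control libraries. CD38+ control libraries were the highest. CLSPN rose over CD90+ control (0.48 ± 0.056), fell against CD38+ control (-0.52 ± 0.055, the lowest of the fork genes) and was -0.995 ± 0.055 between the controls. CHAF1A and CHAF1B, subunits of the chromatin assembly factor that places histones on new DNA, differed. CHAF1A had 66.5, 68.7 and 65.2 CPM in GATA2 OE CD90+, 56.0, 53.5 and 56.0 CPM in CD90+ control and 70.4, 70.4 and 70.6 CPM in CD38+ control libraries. It rose over CD90+ control (0.28 ± 0.036, not called with library size only) and did not pass the test against CD38+ control (-0.077 ± 0.036, adjusted p = 0.0597), although it did without GATA2 OE CD90+ library 2 (adjusted p = 0.0451). CHAF1B had 23.2, 23.2 and 23.2 CPM in GATA2 OE CD90+, 16.4, 15.5 and 14.3 CPM in CD90+ control and 12.04, 13.2 and 13.5 CPM in CD38+ control libraries. It rose by 0.59 ± 0.073 and 0.84 ± 0.075 over the control groups and was 0.25 ± 0.075 between the controls, where CHAF1A was -0.35 ± 0.036 (and 0.056 with library size only).

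The nucleotide supply genes had the largest median change on overexpression, 0.91 on the log2 scale, with all 4 called higher. Their summed level was 609 ± 3.05 CPM in GATA2 OE CD90+, 328 ± 6.69 CPM in CD90+ control and 664 ± 4.49 CPM in CD38+ control libraries, so the CD38+ controls stood highest under TMM scaling, while with library size only the sum was 597 CPM in GATA2 OE CD90+ and 581 CPM in CD38+ control libraries.

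TYMS, thymidylate synthase (chr18:657604-673578), had 193, 192 and 191 CPM in GATA2 OE CD90+, 79.1, 83.6 and 77.5 CPM in CD90+ control and 128, 129 and 125 CPM in CD38+ control libraries. No groups overlapped, and its rise of 1.26 ± 0.030 over CD90+ control (adjusted p = 4.27e-16) was the largest of all replication genes. It rose by 0.60 ± 0.030 over CD38+ control and was -0.67 ± 0.030 between the controls. TYMS shares 967 exon bases with ENOSF1 on the opposite strand and has 2 processed pseudogenes, so its reads may be shared. TK1, the thymidine kinase of the salvage route (chr17:78174075-78187233), had 143, 145 and 150.1 CPM in GATA2 OE CD90+, 74.0, 75.3 and 76.1 CPM in CD90+ control and 322, 332 and 339 CPM in CD38+ control libraries. CD38+ control libraries held by far the most TK1. It was -2.14 ± 0.029 in CD90+ over CD38+ control (adjusted p = 1.75e-19), the largest fall of any replication gene there, and this direction held under every scaling tried. On overexpression TK1 rose by 0.96 ± 0.029 over CD90+ control but was -1.18 ± 0.028 against CD38+ control.

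The ribonucleotide reductase subunits differed between the control groups. RRM2, the small subunit made in S phase, had 144, 145 and 149.99 CPM in GATA2 OE CD90+, 76.6, 83.1 and 79.8 CPM in CD90+ control and 127, 121 and 121 CPM in CD38+ control libraries. RRM1, the large subunit, had 128, 124 and 121 CPM in GATA2 OE CD90+, 91.1, 92.1 and 94.9 CPM in CD90+ control and 81.8, 82.7 and 81.6 CPM in CD38+ control libraries. RRM2 rose by 0.87 ± 0.034 and RRM1 by 0.42 ± 0.031 over CD90+ control, but between the controls RRM2 was lower (-0.63 ± 0.034) and RRM1 higher (0.18 ± 0.031) in CD90+ cells. The ratio of RRM2 to RRM1, in CPM per kb of exon, was 0.922 ± 0.0479 in GATA2 OE CD90+ libraries. It was 0.676 ± 0.0278 in CD90+ control and 1.18 ± 0.0379 in CD38+ control libraries.

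**Figure D4:**
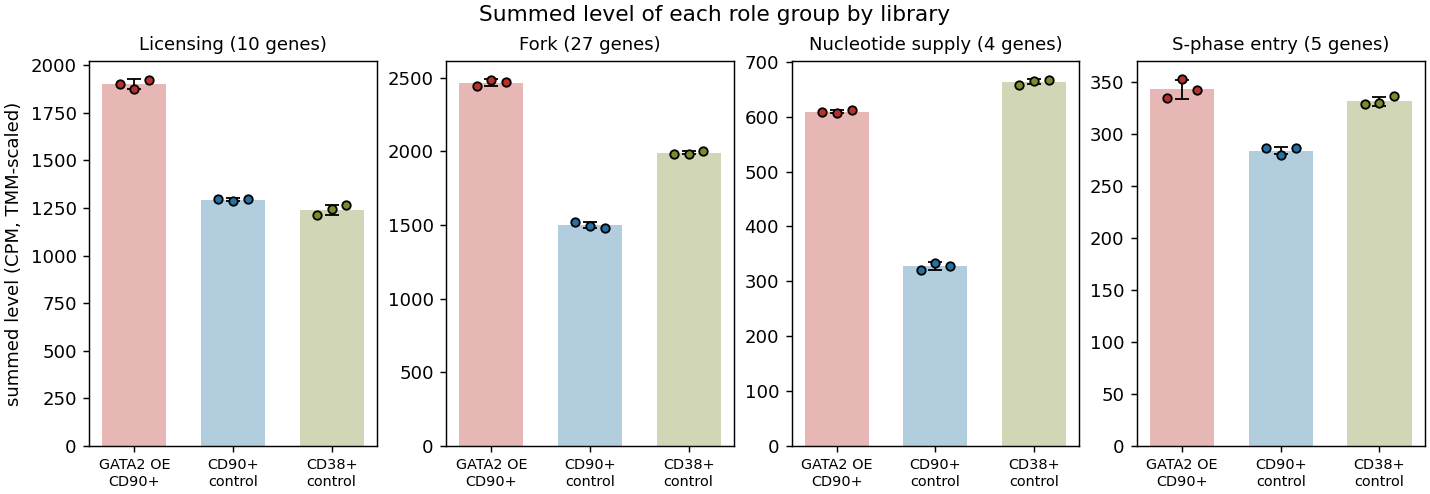
Summed level of the 10 licensing, 27 fork, 4 nucleotide supply and 5 S-phase entry genes in CPM, as bars from 0 with the mean and SD of 3 libraries and a point for each library, for GATA2 OE CD90+, CD90+ control and CD38+ control cells. Under TMM scaling fork genes summed to 2468 ± 21.4, 1498 ± 21.1 and 1991 ± 10.8 CPM, and with library size only the control sums were 1744 and 1745 CPM.

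The S-phase entry genes did not move as one. Their summed level was 343 ± 9.05 CPM in GATA2 OE CD90+, 284 ± 3.72 CPM in CD90+ control and 331 ± 4.37 CPM in CD38+ control libraries, and with library size only the order of the controls turned, with 331 CPM in CD90+ and 290.3 CPM in CD38+ control libraries. Over CD90+ control 4 of 5 rose and ATAD2 fell. Over CD38+ control CCNE1 and SLBP rose and the other 3 fell.

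CCNE1 and CCNE2 encode the E-type cyclins, which drive CDK2 at the start of S phase. CCNE1 (chr19:29811898-29824308) had 22.9, 25.2 and 21.7 CPM in GATA2 OE CD90+, 13.0, 13.8 and 13.2 CPM in CD90+ control and 9.25, 9.84 and 9.31 CPM in CD38+ control libraries. It rose by 0.80 ± 0.076 over CD90+ control and 1.299 ± 0.079 over CD38+ control (adjusted p = 7.89e-11), and was higher in CD90+ than in CD38+ control (0.50 ± 0.079). CCNE2, with the fewest reads of the set, had 3.90, 3.89 and 3.72 CPM in GATA2 OE CD90+, 2.51, 2.59 and 3.14 CPM in CD90+ control and 5.64, 6.23 and 4.86 CPM in CD38+ control libraries. The order of the controls was the other way round, -1.02 ± 0.15 in CD90+ over CD38+ control, and the overexpression libraries lay between them, 0.48 ± 0.15 over CD90+ control (not called with library size only, adjusted p = 0.173) and -0.54 ± 0.15 over CD38+ control. The ratio of CCNE2 to CCNE1, in CPM per kb of exon, was 0.0959 ± 0.00556 in GATA2 OE CD90+ libraries. It was 0.120 ± 0.0159 in CD90+ control and 0.341 ± 0.0341 in CD38+ control libraries. CCNE2 shares 1629 exon bases with INTS8 on the opposite strand, so its counts are uncertain.

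E2F1, the transcription factor that drives many of these genes, had 38.3, 39.6 and 40.3 CPM in GATA2 OE CD90+, 27.3, 26.2 and 27.1 CPM in CD90+ control and 45.0, 43.7 and 50.4 CPM in CD38+ control libraries. It rose over CD90+ control (0.55 ± 0.055), was below CD38+ control (-0.24 ± 0.054, not called with library size only) and was -0.79 ± 0.055 between the controls. SLBP, which binds the stem-loop of replication-dependent histone mRNAs, had 209, 227 and 216 CPM in GATA2 OE CD90+, 154, 152 and 152 CPM in CD90+ control and 182, 187 and 183 CPM in CD38+ control libraries. It rose by 0.51 ± 0.029 over CD90+ control and 0.24 ± 0.029 over CD38+ control, the second of which was only 0.0018 with the length and GC trend removed. Between the controls SLBP was -0.27 ± 0.029, and 0.14 with library size only. ATAD2, a bromodomain ATPase of replicating chromatin, had 59.9, 56.6 and 61.2 CPM in GATA2 OE CD90+, 89.7, 84.7 and 90.7 CPM in CD90+ control and 86.6, 83.1 and 88.6 CPM in CD38+ control libraries. Its controls overlapped (0.038 ± 0.039, adjusted p = 0.386, but 0.45 and called with library size only), and the overexpression libraries lay below both, by a log2 fold change of -0.58 ± 0.040 over CD90+ control (adjusted p = 7.39e-10) and -0.54 ± 0.041 over CD38+ control.

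Across the 3 groups 33 replication genes had their highest mean in GATA2 OE CD90+, 10 in CD38+ control (CDC6, CLSPN, FEN1, PCNA, POLA2, RFC4, CHAF1A, TK1, E2F1 and CCNE2) and 3 in CD90+ control (POLE, POLA1 and ATAD2).

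The size of the change on overexpression varied with gene length. Over the 46 genes the Spearman correlation between exon length and log2 fold change was -0.58 for GATA2 OE CD90+ over CD90+ control, -0.12 over CD38+ control and 0.29 for CD90+ over CD38+ control. Over all 16208 tested genes with a length the values were -0.17, -0.089 and 0.028. These points come from the same libraries and are a description. Among the 2 replication genes with under 2000 exon bases the median rise over CD90+ control was 1.06, against 0.40 for all protein-coding genes of that class, and among the 20 with at least 4000 and under 6000 bases it was 0.48 against 0.0081. In the 6 with 6000 or more bases, LIG1, MCM4, MCM5, POLE, POLA1 and ATAD2, it was 0.13 against -0.26. Once this trend was removed, 42 replication genes rose and 1, ATAD2, fell on overexpression, and between the controls 15 were higher and 24 lower. The part of RNA or library quality in this trend was not tested.

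**Figure D5:**
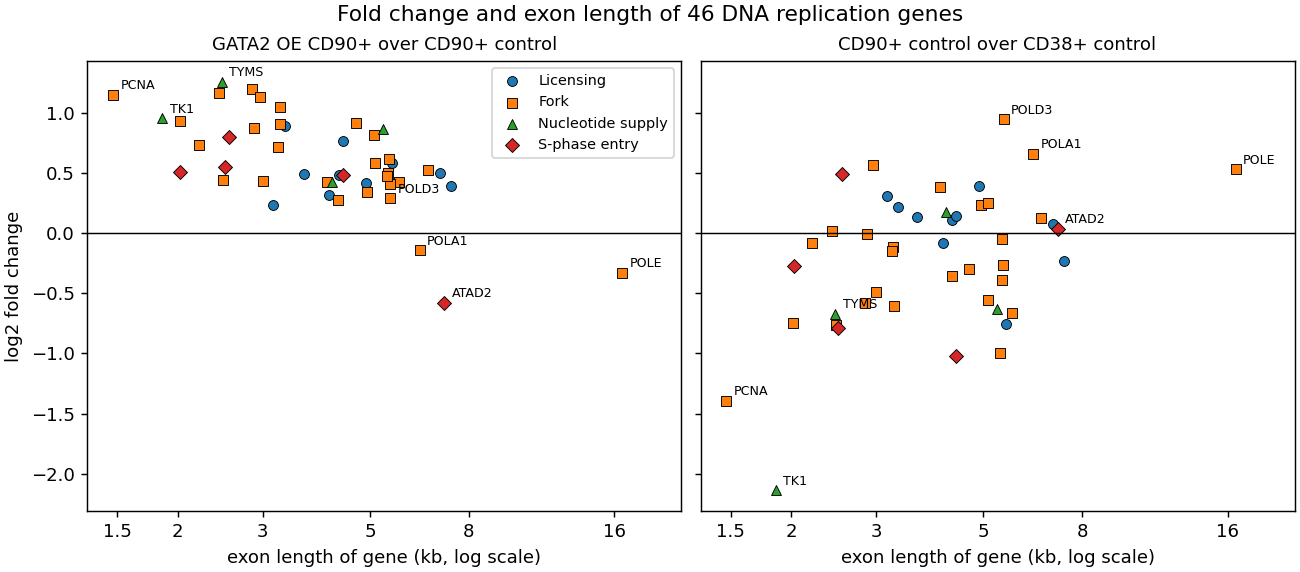
Log2 fold change of each replication gene against its exon length in kb on a log axis, for GATA2 OE CD90+ over CD90+ control and for CD90+ control over CD38+ control, with symbols by role. The shorter genes PCNA, TK1 and TYMS stood at 1.15, 0.96 and 1.26 on overexpression, and SLBP, also short, at 0.51. Of the 6 genes of 6000 or more bases POLA1, POLE and ATAD2 stood at -0.14, -0.33 (which turned to 0.22 with the trend removed) and -0.58, and LIG1, MCM4 and MCM5 at 0.52, 0.50 and 0.39.

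The neighbours of these genes in the pathway were counted beside them, as 135 tested genes in 5 lists. In GATA2 OE CD90+ over CD90+ control cells 100 rose and 20 fell (71 and 38 with library size only). Over all tested genes 38.0% were called higher and 39.6% lower (27.5% and 49.9% with library size only). Of 21 other origin genes 13 rose and 3 fell, a split that was 8 and 7 with library size only. GMNN, which encodes the CDT1 inhibitor geminin, stood at 183 ± 1.75 CPM in GATA2 OE CD90+, 94.6 ± 1.35 CPM in CD90+ control and 116 ± 2.17 CPM in CD38+ control libraries, a rise of 0.95 ± 0.026 over CD90+ control. The kinase gene CDC7 rose by 0.66 ± 0.067 and its activator DBF4 by 0.42 ± 0.040, while CUL4B, a ubiquitin ligase scaffold, fell (-0.72 ± 0.055), as did TOPBP1 (-0.49 ± 0.048), which helps to fire origins. Of 32 other fork genes 28 rose and TIMELESS alone fell (-0.53 ± 0.051), against 16 and 8 with library size only. The largest rises were those of DSCC1, a cohesion clamp loader subunit (1.69 ± 0.065), and SSBP1, the mitochondrial single-strand binding protein (1.246 ± 0.056), and the topoisomerase gene TOP2A was 0.12 ± 0.026, which turned to -0.13 with library size only.

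Of 32 other nucleotide genes 25 rose and 6 fell (21 and 8 with library size only). DUT, which removes dUTP, stood at 396 ± 9.47 CPM in GATA2 OE CD90+, 112 ± 2.11 CPM in CD90+ control and 209 ± 9.29 CPM in CD38+ control libraries and rose by 1.82 ± 0.032 over CD90+ control. NME1, a nucleoside diphosphate kinase, rose by 1.39 ± 0.029. SAMHD1, which breaks down dNTPs and is abundant in myeloid cells, stood at 14.9 ± 2.48 CPM in GATA2 OE CD90+, 221 ± 6.80 CPM in CD90+ control and 185 ± 3.38 CPM in CD38+ control libraries, the largest fall of the list (-3.89 ± 0.066 over CD90+ control), and the mitochondrial thymidine kinase TK2 fell by 1.08. Among E2F, RB and CDK genes 18 of 32 rose and 9 fell (13 each with library size only). TFDP2, an E2F partner, rose by 1.36 ± 0.047 and the CDK inhibitor CDKN2A by 1.26 ± 0.17. The CDK inhibitor CDKN1A fell to 129 ± 1.04 CPM in GATA2 OE CD90+, against 433 ± 1.42 CPM in CD90+ control libraries (-1.75 ± 0.025), and stood at 1293 ± 34.5 CPM in CD38+ control libraries. CCND1 fell (-0.99 ± 0.062), as did the repressors E2F7 (-0.93 ± 0.12) and E2F8 (-0.24 ± 0.081), and E2F2 did not pass the test (adjusted p = 0.606). Late cycle markers rose in 16 of 18 cases, led by UBE2C (1.72 ± 0.025) and AURKB (1.22 ± 0.029), and MKI67, the proliferation antigen, was the one that fell (-0.35 ± 0.026), at 97.3 ± 1.36 CPM in GATA2 OE CD90+, 124 ± 2.36 CPM in CD90+ control and 211 ± 0.461 CPM in CD38+ control libraries.

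Between the controls the same lists held 42 higher and 76 lower genes in CD90+ cells, and 75 and 44 with library size only. Over all tested genes 41.1% were called higher and 39.3% lower (58.6% and 23.7% with library size only). Under TMM scaling the splits of the other origin and other nucleotide genes lay near these shares. Late cycle markers were lower in 16 of 18 cases (9 lower and 7 higher with library size only), with HMMR at -1.12 ± 0.051, CENPF at -1.09 ± 0.032 and MKI67 at -0.77 ± 0.025, and AURKB was the one called higher (0.30 ± 0.030). E2F, RB and CDK genes were lower in 23 of 32 cases (14 lower and 12 higher with library size only), among them CDKN2A (-1.94 ± 0.17), CCND3 (-1.86 ± 0.030), CDKN1A (-1.58 ± 0.024) and E2F2 (-1.199 ± 0.098), while E2F5 (1.76 ± 0.10), CCND1 (0.86 ± 0.062) and E2F7 (0.52 ± 0.12) were higher. Among other origin genes 8 were higher, led by SKP2 (1.74 ± 0.046) and TICRR (1.203 ± 0.10), and 7 lower, led by DONSON (-0.56 ± 0.047) and MCM8 (-0.49 ± 0.10), a split that was 17 higher and 1 lower with library size only. Among other fork genes 12 were higher, led by the nuclease DNA2 (0.75 ± 0.087) and CHTF18 (0.63 ± 0.052), and 17 lower, led by POLD4 (-2.01 ± 0.096) and the histone chaperone ASF1B (-1.39 ± 0.029), which was 20 higher and 11 lower with library size only. Other nucleotide genes split 13 higher to 13 lower (19 to 9 with library size only), from CAD (1.23 ± 0.053) and IMPDH2 (0.94 ± 0.029) to SHMT2 (-1.34 ± 0.024) and MTHFD2 (-1.37 ± 0.027), and DUT was lower (-0.90 ± 0.032). The lower calls of GMNN (-0.29), DBF4 (-0.38) and E2F8 (-0.27) in CD90+ over CD38+ control cells turned to 0.12, 0.033 and 0.14 with library size only, and TOP2A was -0.74 ± 0.026. CDC7 was 0.28 ± 0.070. In GATA2 OE CD90+ over CD38+ control cells the lists held 73 higher and 45 lower genes, and 85 and 36 with library size only. All tested genes were called higher in 43.3% and lower in 39.9% of cases there (48.2% and 34.8% with library size only).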

How the data were processed

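Strand-specific libraries were read as paired reads of 150 nucleotides, per the labels' protocols. HISAT2, featureCounts and hg38 are named in the submitters' processing notes; no version, setting, gene annotation or strand option is given in the sources used here. The authors deposited raw read counts per gene, not normalized, for 9 libraries in 1 table. The 46 genes and all lists were chosen with earlier results of these data known.

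The counts were tested with edgeR 4.0.16 in R 4.3.3 by the quasi-likelihood test, with TMM factors and a group-means model over all 9 libraries. Genes were kept by filterByExpr with a minimum count of 10 and a minimum total of 15. P-values were adjusted by the method of Benjamini and Hochberg over all 16232 genes tested, with a threshold of 0.05. Each SE was computed as the absolute log2 difference over the root of its F statistic. Positions and exon lengths are from GENCODE 29 (GRCh38), promoters from RefSeq. The test was checked on simulated counts in which few genes differed between groups. Most genes differed in these data, so that check does not cover the scaling between groups. Within groups the chi-square per degree of freedom between libraries was 3.96 to 7.84 over genes with at least 20 counts, so no library was a repeat of another.

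Every replication gene is described. Of the 5 pathway lists, the 2 genes that rose most and the 2 that fell most are named (those called, with a mean of at least 5 CPM) beside a fixed set of genes (one of them is not reported here), in full for GATA2 OE CD90+ over CD90+ control and for CD90+ over CD38+ control, and by counts for GATA2 OE CD90+ over CD38+ control. Lists of markers of 8 other cell types were summed. Of 287 list symbols 284 matched directly and 1 by an older symbol, and 2 were not analysed here. Alternatives were other scalings and filters, DESeq2 1.42.0, limma 3.58.1 with voom, the compared groups alone, a replicate block, stricter thresholds and leaving out each library. Removal of a trend on length and GC content, the principal transcript length and the alternatives for the pathway lists were chosen after seeing the data.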

Additional observations from a re-analysis of the deposited data

How the results depend on the processing

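Of the replication genes' results under alternative settings, 860 for GATA2 OE CD90+ over CD90+ control kept their direction and side of the threshold, 7 lost and 5 gained the call and 2 reversed. For GATA2 OE CD90+ over CD38+ control the numbers were 848, 11, 9 and 6, and for CD90+ over CD38+ control 795, 30, 13 and 36. Scaling set most of the reversals, and the cause was not tested. In CD90+ over CD38+ control, library size only gave log2 differences of 0.18 for MCM5, 0.33 for MCM6, 0.023 for MCM10, 0.36 for GINS4, 0.33 for RFC2, 0.41 for RFC3, 0.30 for RFC5, 0.11 for PRIM2, 0.14 for RPA1, 0.27 for RPA3, 0.056 for CHAF1A and 0.14 for SLBP. Upper-quartile factors gave 0.036 for MCM5, 0.18 for MCM6, 0.22 for GINS4, 0.18 for RFC2, 0.26 for RFC3, 0.15 for RFC5 and 0.12 for RPA3. Differences near 0 also turned. For GINS4 they were 0.0019 with RLE size factors, 0.036 with at least 1 CPM in 3 libraries, 0.0016 with DESeq2, 0.013 with the compared groups alone and -0.14 to 0.027 with 1 library left out. For RFC3 they were 0.045 with RLE size factors, 0.011 with no filter, 0.079 with at least 1 CPM in 3 libraries, 0.045 with DESeq2, 0.056 with the compared groups alone, 0.021 after removal of the length and GC trend, and -0.027 to 0.044 with 1 library left out (above 0 without CD38+ control library 1, CD90+ control library 1 or GATA2 OE CD90+ library 3). RFC2 was 0.0020 with at least 1 CPM in 3 libraries. PRIM1 was -0.012 without CD38+ control library 3 and -0.0012 with the trend removed.

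In GATA2 OE CD90+ over CD90+ control, ORC1 was -0.0096 with library size only and POLE 0.22 with the trend removed. Over CD38+ control, RFC4 was 0.11 and CHAF1A 0.084 with library size only, RFC4 0.10 and CHAF1A 0.072 with upper-quartile factors, and MCM6 -0.0037 and RPA2 -0.12 with the trend removed. Library size only gave 28 higher and 13 lower replication genes between the controls, and the trend removal left 1 lower on overexpression. A requirement of at least 1.5-fold left 21 replication genes over CD90+ control (21 higher, 0 lower) and 14 between the controls (2 higher, 12 lower). Of the 16232 tested genes it left 8100 and 8636 in these comparisons, both directions together. Over CD38+ control it left 20 replication genes (19 higher, 1 lower), and the number over all genes is not given here. Of the pathway genes it left 55 over CD90+ control, 70 over CD38+ control and 56 between the controls.

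Summed levels in CPM moved with the scaling. Licensing genes were at 1864 in GATA2 OE CD90+, 1507 in CD90+ control and 1087 in CD38+ control with library size only, at 1412 in CD90+ control and 1128 in CD38+ control with upper-quartile factors, and at 1324 in CD90+ control with RLE factors. Fork genes were at 2419.7, 1744 and 1745 with library size only, at 2438, 1533 and 1970.4 with RLE factors, in the same order of groups, and at 1635 in CD90+ control and 1810.3 in CD38+ control with upper-quartile factors. Nucleotide supply genes were at 597, 382 and 581 with library size only, at 601, 335 and 657 with RLE factors and at 614, 358 and 603 with upper-quartile factors. S-phase entry genes were at 331 in CD90+ control and 290.3 in CD38+ control with library size only, at 309.8 and 301 with upper-quartile factors, and at 290.5 in CD90+ control with RLE factors. By principal transcript the MCM ring ranged over 5.72-fold in GATA2 OE CD90+, 4.20-fold in CD90+ control and 3.59-fold in CD38+ control libraries.

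With 1 library left out at a time, 45 to 45 replication genes were called over CD90+ control (43 to 43 higher, 2 to 2 lower), 42 to 46 over CD38+ control (33 to 35 higher, 9 to 11 lower) and 38 to 42 between the controls (15 to 17 higher, 22 to 25 lower). All genes called were 12142 to 12820, 13280 to 13532 and 12713 to 13398, and pathway genes 116 to 122, 115 to 119 and 113 to 119. The replicate numbers did not pair the libraries: same-numbered libraries had correlations of -0.029 to 0.026 in their deviations from the group means, and 2 of 9 correlated best with their own number. With a replicate block 45 replication genes were called over CD90+ control, 43 over CD38+ control and 42 between the controls, and 12384, 13347 and 12889 of all genes. No replication gene had under 128 reads in any library, and counting error limits those with the fewest reads. Groups of 3 and the lack of stated separate cultures limit what the p-values cover.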
